A study of Mus musculus with 32 samples.

Results

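The Pax genes encode transcription factors that bind DNA through a paired domain, and all 8 whose rows were listed for this description (Pax1, Pax2, Pax3, Pax5, Pax6, Pax7, Pax8 and Pax9) were followed through every expression file, as 8 of the 23154 genes in the files. They were chosen by name and not by any measured value. In mouse embryos they are classic markers of position. Pax1 and Pax9 mark the sclerotome, the part of the somite that forms vertebrae and ribs. Pax3 and Pax7 mark the dermomyotome, which gives skeletal muscle and dermis, as well as the dorsal neural tube and the neural crest. Pax2, Pax5 and Pax8 mark the boundary between midbrain and hindbrain, and Pax6 marks neural progenitors of the forebrain and is best known for its role in eye development.

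The study profiled 1916 single cells, each picked by mouth pipette, from 7 C57BL/6J embryos on embryonic (E) days E9.5, E10.5 and E11.5. The 32 samples covered somite, heart, lung, intestine, liver and skin and, from the brain, forebrain and hindbrain. E9.5 was represented by 3 embryos and each later day by 2, E9.5 embryo 2 being female and the others male by their labels, and no brain cells of E9.5 embryo 3 entered. All were unmanipulated embryos, with no mutant or treatment. A total of 1805 cells passed the authors' filter and were distinct, and 1801 of them carried one of the authors' major groups, which are hematopoietic, neuronal, epithelial and mesoderm-derived. These groups came from a clustering that used Pax6 and Pax7 regulons among others, so values between major groups are given as a description, and tests were run only within a major group, between organs (which are dissection labels), over days and between cells split by their Pax genes. The kept cells held from 20326 to 2524348 unique molecular identifiers (UMIs, each tagging 1 captured RNA molecule), with a median of 306271. The values were the UMIs of a gene scaled to the same total in every cell (CPM), which the authors named TPM, and a level here is the mean over the cells of an embryo of log2(TPM/10 + 1). A cell was counted as expressing a gene from 10 TPM.

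The somite and forebrain labels matched their defining genes. Meox1, a somite gene, was expressed in 189 of 199 mesoderm-derived somite cells, and Six3, an anterior forebrain gene, had an embryo level of 1.67 ± 0.87 (SD, n = 6) in forebrain neuronal cells against 0.07 ± 0.08 in neuronal cells labelled hindbrain. Hox genes, the usual signature of the caudal hindbrain, were nearly absent from neuronal cells labelled hindbrain. Their absence does not test the label for more rostral hindbrain. The 10 Hox genes examined together gave between 0 and 17 UMIs per embryo in labelled hindbrain neuronal cells, with at most 1 cell per embryo at 10 TPM. Otx2, a forebrain and midbrain gene, was expressed there in 43 of 43 and 31 of 32 cells of E9.5 embryos 1 and 2. It was expressed in 5 of 30 and 18 of 27 cells of E10.5 embryos 1 and 2, and in 7 of 26 and 12 of 25 cells of E11.5 embryos 1 and 2. En1 or En2, which mark the midbrain and hindbrain boundary region, were expressed in 0 of 43 and 18 of 32 cells of E9.5 embryos 1 and 2. They were expressed in 30 of 30 and 21 of 27 cells of E10.5 embryos 1 and 2, and in 21 of 26 and 13 of 25 cells of E11.5 embryos 1 and 2. The E9.5 samples carry metencephalon as their tissue. The samples labelled hindbrain thus differed in their Otx2 and En shares, and every hindbrain value given here belongs to the cells so labelled.

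Upstream sequence is shown for the 2 sclerotome Pax genes and for AI646519, an antisense noncoding gene next to Pax1 whose levels were the most like those of Pax1. RefSeq (GRCm38.p6) promoter entries were found for 7 of the 8 Pax genes, Pax3 being the exception. Each line gives the 250 bases before the annotated start, 5′ to 3′ on the gene's own strand, at chr2:147364744-147364993 (plus strand) for Pax1, chr2:147362794-147363043 (minus strand) for AI646519 and chr12:56695221-56695470 (plus strand) for Pax9. Capitals mark matches, on either strand, to the GC box GGGCGG, the CCAAT box CCAAT and the TATA box TATAAA, which do not overlap here.

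Pax1: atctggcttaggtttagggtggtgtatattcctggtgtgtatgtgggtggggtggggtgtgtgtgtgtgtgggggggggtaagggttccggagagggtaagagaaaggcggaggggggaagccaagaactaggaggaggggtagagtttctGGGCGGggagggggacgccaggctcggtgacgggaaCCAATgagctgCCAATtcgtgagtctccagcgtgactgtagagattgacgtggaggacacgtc
AI646519: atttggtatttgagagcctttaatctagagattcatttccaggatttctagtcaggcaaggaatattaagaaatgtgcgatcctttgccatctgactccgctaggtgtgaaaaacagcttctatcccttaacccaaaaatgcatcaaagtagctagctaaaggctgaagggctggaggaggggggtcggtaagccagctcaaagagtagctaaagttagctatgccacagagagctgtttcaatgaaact
Pax9: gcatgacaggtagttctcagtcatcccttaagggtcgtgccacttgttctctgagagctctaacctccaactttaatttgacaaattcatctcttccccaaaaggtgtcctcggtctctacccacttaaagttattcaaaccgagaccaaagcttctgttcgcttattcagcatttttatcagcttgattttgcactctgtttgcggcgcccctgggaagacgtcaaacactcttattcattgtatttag

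The Pax1 window held 1 GC box and 2 CCAAT boxes, with 10 CpG dinucleotides and 58.8% G or C. Neither of the other windows held any of the 3 motifs, and both held 1 E box (CANNTG), with 7 CpG and 43.6% G or C for Pax9 and 3 CpG and 43.2% for AI646519. Over the 32851 RefSeq promoter windows of this length, 32.7% held the GC box, 33.8% the CCAAT box, 12.4% the TATA box and 66.2% the E box, and the median window held 6 CpG. In GENCODE M21 (GRCm38) Pax1 spans chr2:147361925-147393295 on the plus strand and AI646519 spans chr2:147357454-147362793 on the minus strand, and the genes overlap by 869 bases. The RefSeq start of Pax1 lies 3069 bases after the GENCODE start, which leaves 2200 bases between it and the start of AI646519. Whether the reads were counted by strand is not given in the sources used here, so reads inside the 869 bases cannot be told apart. The overlap lies at the 5′ end of both genes. By the paper's methods, the libraries were enriched for fragments with the cell barcode, which sits on a primer ending in a run of T. How many reads fall inside the overlap was not tested.

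Across the 1805 cells the members fell into a common and a rare set. Pax3 was expressed in 236 cells (15058 UMIs) and Pax6 in 202 cells (11817 UMIs). Pax1 was expressed in 86 cells, Pax9 in 57, Pax8 in 43 and Pax7 in 42. Pax2 was expressed in 11 cells with 130 UMIs in all, and Pax5 in 4 cells with 32 UMIs. Pax4, the family member that was not listed, had 0 UMIs in these cells, out of cells with the depths given above.

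Each member was concentrated in the somite, the brain or both. Of the 86 Pax1 cells, 85 were mesoderm-derived somite cells, as were 50 of the 57 Pax9 cells. Of the 43 Pax8 cells, 31 were labelled hindbrain neuronal cells and 6 were forebrain neuronal cells, and 10 of the 11 Pax2 cells were labelled hindbrain neuronal cells. Pax3 and Pax7 had both sites, with 110 and 21 labelled hindbrain neuronal cells and 93 and 15 mesoderm-derived somite cells. Of the 202 Pax6 cells, 122 were forebrain neuronal and 57 labelled hindbrain neuronal cells.

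Blood cells served as the background, as cells in which these genes have no known role at this stage. Among 246 hematopoietic cells with a median depth of 437877 UMIs, Pax1 was expressed in 1 cell (0.407%), Pax9 in 2 (0.813%), Pax3 in 3 (1.22%) and Pax6 in 3 (1.22%). Pax2, Pax5, Pax7 and Pax8 had no blood cell at 10 TPM, which allows a share of such cells of up to 1.22% by counting error, and Pax8 had 5 UMIs below that level. All 3 Pax3 blood cells came from the labelled hindbrain, where they were 3 of 17 hematopoietic cells. Pax6 in mesoderm-derived somite cells, at 4 of 199 cells (2.01%, exact 95% binomial interval 0.55% to 5.1%, counting error only), was not separated from this background.

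**Figure D1:**
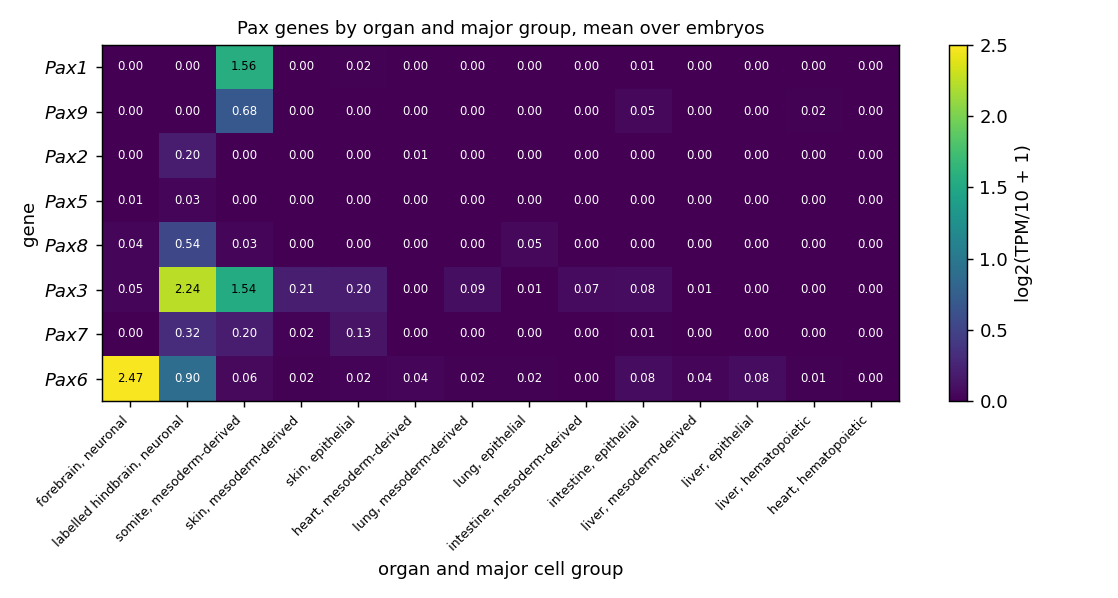
Mean log2(TPM/10 + 1) level of each Pax gene by organ and major group, averaged over embryos with at least 3 cells in the set. Colour and the printed number give the level, from 0 to 2.5. Pax1 (1.56) and Pax9 (0.68) peak in the somite, Pax3 in labelled hindbrain (2.24) and somite (1.54), Pax8 in labelled hindbrain (0.54) and Pax6 in forebrain (2.47).

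The order of the levels put the somite first for Pax1 and Pax9. For Pax1 the somite level was 1.56 ± 0.89 (SD, n = 7 embryos) and the next set, skin epithelial cells, was at 0.02 ± 0.03, with ranges that did not overlap. For Pax9 the somite level was 0.68 ± 0.54 and overlapped the next set, labelled hindbrain blood cells of 2 embryos (0.34 ± 0.48). For Pax3 the labelled hindbrain neuronal level (2.24 ± 1.17, n = 6) and the somite level (1.54 ± 0.83, n = 7) overlapped, and for Pax7 the same sets (0.32 ± 0.13 and 0.20 ± 0.11) overlapped as well. For Pax6 the forebrain neuronal level (2.47 ± 1.47) and the labelled hindbrain neuronal level (0.90 ± 1.61) overlapped, E9.5 embryo 1 being far above the other embryos in labelled hindbrain. A level averages cells that hold the gene and cells that do not, so fewer expressing cells and less RNA per cell cannot be told apart from the mean alone, and cell counts are given beside it.

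Within the somite, Pax1, which the sclerotome needs for vertebral bodies, varied widely between embryos. Its level was 1.69, 2.04 and 0.62 in E9.5 embryos 1, 2 and 3, 0.59 and 0.80 in E10.5 embryos 1 and 2, and 2.71 and 2.43 in E11.5 embryos 1 and 2. Both E11.5 embryos were above all others, and the E9.5 embryos spanned values from near the lowest to near the highest. The expressing cells numbered 12 of 24, 16 of 26, 5 of 30, 5 of 31, 7 of 29, 18 of 29 and 22 of 30 in the same order. In the 85 expressing cells the median level was 99.4 TPM.

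Pax9, the paralog of Pax1 with which it acts in the sclerotome, had somite levels of 0.84, 1.62 and 0.14 in E9.5 embryos 1, 2 and 3, of 0.15 and 0.43 in E10.5 embryos 1 and 2, and of 0.51 and 1.09 in E11.5 embryos 1 and 2. The highest embryo was E9.5 embryo 2 and the lowest were E9.5 embryo 3 and E10.5 embryo 1, each with 1 expressing cell. Its median in the 50 expressing cells was 38.3 TPM.

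Pax3, which acts in muscle precursors upstream of the myogenic genes, had somite levels of 1.30, 0.43 and 2.69 in E9.5 embryos 1, 2 and 3, of 1.23 and 2.20 in E10.5 embryos 1 and 2, and of 0.77 and 2.14 in E11.5 embryos 1 and 2. E9.5 embryo 2, which was highest for Pax9, was lowest for Pax3, with 3 of 26 cells, and E9.5 embryo 3, which was lowest for Pax9, was highest for Pax3, with 23 of 30 cells. The median in the 93 expressing cells was 82.5 TPM.

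Pax7, which later marks muscle stem cells, had low somite levels between 0.00 in E9.5 embryo 1 and 0.31 in E11.5 embryo 2, with a median of 0.25. No embryo had more than 4 expressing cells, and the median in the 15 expressing cells was 42.9 TPM. The somite cells came from a range of depths, with embryo medians between 141594 and 1248226 UMIs. The part of depth in these levels was not tested.

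**Figure D2:**
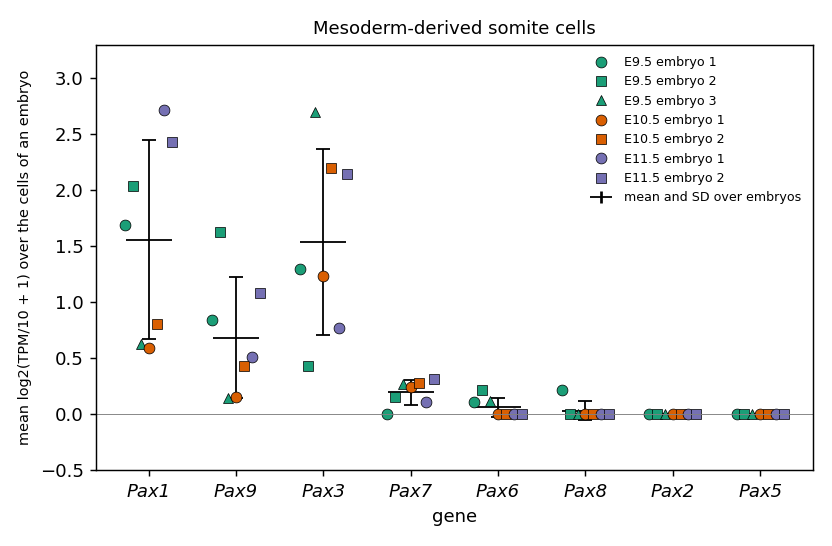
Mean log2(TPM/10 + 1) level of each of the 8 Pax genes in mesoderm-derived somite cells. Each point is 1 of the 7 embryos, coloured by day, and bars give the mean and SD over embryos. Pax1 lies between 0.59 and 2.71 and Pax3 between 0.43 and 2.69, and the highest Pax7 embryo is at 0.31.

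The comparison of somite with the other organs asked which Pax genes set somite mesoderm apart from the mesoderm of skin, heart, lung and intestine. All 4 somite members were higher in the somite (limma on embryo means, Benjamini-Hochberg over 15619 genes, adjusted p under 0.05), against 3.44% of all genes called higher and 5.64% called in either direction. Pax1 differed by 1.55 (SE 0.17, adjusted p = 1.32e-07, limma) and Pax3 by 1.44 (SE 0.17, adjusted p = 4.51e-07, limma). Pax9 differed by 0.68 (SE 0.10, adjusted p = 2.66e-05, limma) and Pax7 by 0.19 (SE 0.02, adjusted p = 4.84e-06, limma). These SEs pool the spread between embryos over all organs of the fit and are not those of the somite embryos alone. For Pax1 the SD was 0.89 in the somite and 0.009 in intestinal mesoderm. Pax8 (0.03, adjusted p = 0.349, limma) and Pax6 (0.04, adjusted p = 0.229, limma) did not pass, and Pax2 and Pax5 were under the expression filter, so 6 of the 8 members entered the test. edgeR called 5 members, the same 4 and Pax8 (adjusted p = 0.0145, edgeR with TMM factors), beside 1121 other genes. Pax1, Pax9, Pax7 and Pax8 met the filter of 3 cells only through somite cells. At 10 TPM, skin mesoderm had 0, 0, 1 and 0 cells with them in that order, and the remaining mesoderm 0, 0, 1 and 1. Their calls therefore add no evidence beyond these somite cells. Pax3 had 6 such cells in skin and 10 in the remaining mesoderm.

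Other somite genes, taken from lists of developmental markers, were higher in the somite as well. Of 11 tested genes of the dermomyotome and somite, 8 were higher, among them Dmrt2, Meox1, Meox2 and Tcf15, with a list median of 0.70 against 0.01 over all genes tested. Meox1, a somite homeobox gene, differed by 4.30 (SE 0.14, adjusted p = 6.28e-21, limma) and Tcf15, needed for epithelial somites, 2.29 (SE 0.14, adjusted p = 1.47e-13, limma). Of 9 tested genes of myotome and muscle, 5 were higher (Myf5, Myf6, Myod1, Myog and Tnnt1; median 0.56), and Myf5, the first myogenic factor, differed by 1.27 (SE 0.18, adjusted p = 1.17e-05, limma).

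The sclerotome list had 6 of 11 tested genes higher, among them Col2a1, Foxc2 and Uncx (median 0.56). Uncx, which marks the caudal part of each sclerotome, differed by 1.20 (SE 0.10, adjusted p = 3.76e-10, limma). Sox9, which drives cartilage formation, differed by 0.43 (SE 0.33, adjusted p = 0.50, limma) and did not pass. Of 8 genes of limb and lateral plate, 4 were lower in the somite (Foxf1, Hand2, Osr1 and Tbx5), as were all 6 epithelial genes.

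The other mesoderm organs, each set against the mean of the rest with the somite included, gave no Pax call. The 6 tested members had 0 calls in skin (7.36% of all genes called), heart (21% called), lung (3.12% called) and intestine (6.93% called) under limma. At an unadjusted p under 0.05 the members numbered 1, 3, 3 and 3 in that order, beside 2977, 5019, 2066 and 3229 other genes of 15619 tested. By edgeR 1 was called in skin (Pax7, higher), 2 in heart (Pax1 and Pax3, lower) and none in lung and intestine. The other genes called by edgeR with TMM factors numbered 1112, 3140, 778 and 1471 in the same order. For Pax3 in heart mesoderm the difference from the other organs was −0.48 (SE 0.18, adjusted p = 0.0513, limma). The mean of those organs holds the somite level of 1.54, so this value is not particular to heart. Heart mesoderm had 0 of 236 cells at 10 TPM of Pax3, which allows a share of such cells of up to 1.27% by counting error, while skin mesoderm had 6 of 91 cells and a level of 0.21 ± 0.24 (n = 6), lung had 6 of 145 cells and a level of 0.09 ± 0.12 (n = 6), and intestine had 1 of 90 cells.

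Pax levels in the somite were also followed over the 3 days. No gene of 12919 tested changed with day by limma at adjusted p under 0.05 (0% called), and no Pax gene did. At an unadjusted p under 0.05, 1649 other genes and 1 Pax gene (Pax6, −0.08 per day, from levels of 0.11, 0.21 and 0.12 in the 3 embryos of E9.5 to 0 in the 4 later ones) were found, and edgeR called no Pax gene and 6 others. The slope of Pax1 was 0.48 per day (SE 0.26, adjusted p = 0.462, limma), that of Pax9 −0.07, that of Pax3 0.01 and that of Pax7 0.04.

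The 4 somite genes were then read in single cells. Cells were placed on a Pax1/Pax9 side if they expressed either of these, on a Pax3/Pax7 side if they expressed either of those, and could be on both or on neither. Of the 199 cells, 59 were on the Pax1/Pax9 side only, 56 on the Pax3/Pax7 side only, 39 on both and 45 on neither. The share on both was 70.0% of the cells of E11.5 embryo 2 and between 6.45% and 17.2% in the other 6 embryos, so E11.5 embryo 2 alone gave 21 of the 39. Without that embryo 53, 53, 18 and 45 of 169 cells fell on the same sides, and the share on both was 10.7%.

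The depth of E11.5 embryo 2 lay inside the range of the other embryos, at a median of 355770 UMIs per cell. Its cells on both sides had a median of 393819 UMIs and 7775 genes, and its cells on 1 side had 317722 UMIs and 7631 genes. After every cell was thinned to 100000 UMIs the share on both was 73.1% in that embryo and between 9.09% and 26.9% in the others. Embryos also differed in which side prevailed, with 18 of 26 cells on the Pax1/Pax9 side only in E9.5 embryo 2 and 20 of 30 on the Pax3/Pax7 side only in E9.5 embryo 3.

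**Figure D3:**
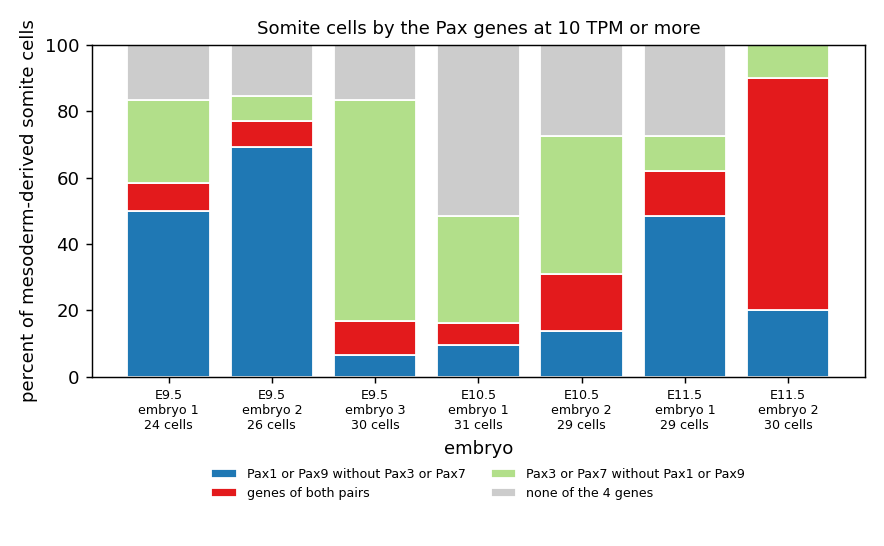
Stacked shares of mesoderm-derived somite cells, in percent, on the Pax1/Pax9 side only, on the Pax3/Pax7 side only, on both and on neither, for each of the 7 embryos. E11.5 embryo 2 has 70.0% of its cells on both sides and no other embryo exceeds 17.2%.

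Paralogs were found together in single cells. Pax1 was expressed in 37 of the 50 Pax9 cells (74.0%), and Pax3 in 13 of the 15 Pax7 cells. Across the sides, Pax3 was expressed in 36.5% of Pax1 cells against 54.4% of the other somite cells, and without E11.5 embryo 2 in 23.8% against 50.9%. Only 1 cell expressed both Pax9 and Pax7. These shares count cells of shared embryos and carry no test.

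Other markers read in the same cells, thinned to 100000 UMIs, described the sides further. Sox9 had a UMI in 83.1% of the 83 Pax1 cells against 59.6% of the 94 without Pax1. Dmrt2, a dermomyotome gene upstream of Myf5, had a UMI in 76.5% of the 85 Pax3 cells against 38.0% of the 92 without Pax3. Myf5 was found in 62.4% against 30.4% and En1, which marks the central dermomyotome, in 47.1% against 13.0% of the same cells. Cells on neither side were 34 after thinning, and Osr1, a gene of intermediate and lateral mesoderm, had a UMI in 52.9% of them against 12.6% of the 143 cells with a Pax gene. Without E11.5 embryo 2 these shares ran the same way, with Sox9 in 81.8% against 57.6%, Dmrt2 in 68.8% against 34.5% and Myf5 in 51.6% against 26.4%.

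The cells of a single side, assigned after thinning, were compared by their deposited values over embryos with at least 3 cells of a side, which left 6 embryos for the Pax1/Pax9 side and 4 for the Pax3/Pax7 side, 3 of them in common. Of 11612 genes, 4 were called by limma (0.0344%), and 2 of these were Pax genes that the split had used. The other 2 were AI646519, higher on the Pax1/Pax9 side by 2.41 (level 2.56 against 0.15, SE 0.37, adjusted p = 0.00684, limma), and Fam212a, at chr9:107984223-107985879 on the minus strand, by 2.04 (level 3.59 against 1.55, SE 0.37, adjusted p = 0.0496, limma), each higher in 3 of 3 common embryos. Leaving out 1 embryo gave between 1 and 5 genes other than Pax genes, with 1 without E9.5 embryo 2 and 5 without E9.5 embryo 1 or E10.5 embryo 1. With the embryo as a replicate block 0 genes were called, with AI646519 at 2.22 (SE 0.47, adjusted p = 0.816, limma) and Fam212a at 2.32 (adjusted p = 0.816, limma). Without a filter on low genes 0 were called as well, and edgeR called 3 non-Pax genes, Fam212a not being one of them (adjusted p = 0.493, edgeR). The part of reads shared between Pax1 and AI646519 in this difference was not tested.

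Known genes of the sides did not pass this test. Sox9 was at 2.36 (adjusted p = 0.0731, limma) and Meox2, a somite homeobox gene, at 1.75 (adjusted p = 0.108, limma), while Dmrt2 was at −1.75 (adjusted p = 0.331, limma) and Myf5 at −1.18 (adjusted p = 0.997, limma). No gene of the sclerotome, myotome or dermomyotome lists was called, with list medians of 0.68, −0.64 and −0.20 against −0.01 over all genes. Among genes other than Pax genes, 515 had an unadjusted p under 0.05.

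AI646519 was nearly as restricted as Pax1. Of its 84 expressing cells 82 were mesoderm-derived somite cells. Its somite levels were 1.25, 2.44 and 0.35 in E9.5 embryos 1, 2 and 3, 0.90 and 0.86 in E10.5 embryos 1 and 2, and 1.88 and 2.07 in E11.5 embryos 1 and 2. E9.5 embryo 2 was highest and E9.5 embryo 3 lowest, whereas for Pax1 both E11.5 embryos were the highest and E10.5 embryo 1 the lowest. In single cells it was expressed in 65 of the 85 Pax1 cells (76.5%) and in 17 of the 114 others (14.9%), and in 4 of the 13 cells with Pax9 but without Pax1.

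Over 89 sets of organ, major group and embryo, the levels of each member were set beside those of every other gene by Pearson's r, as a description whose points share libraries and cells and whose level is set mainly by which sets hold the gene. AI646519 was most like Pax1 (r = 0.966), followed by Meox2 (0.926), Meox1 (0.886), Tcf15 (0.857) and Adig (0.848), with Pax9 at 0.835. The 5 most like Pax9 were AI646519 (0.892), Pax1 (0.835), Wfdc9 (0.805), Meox1 (0.782) and C1ql2 (0.764). Adig, Wfdc9 and C1ql2 were near 0 in every set, with highest levels of 0.09, 0.10 and 0.07, so their r rests on few UMIs. Pax3 was most like Pax7 (0.837), ahead of Chrnb4 (0.685), Cartpt (0.676), Plch1 (0.665) and Rgmb (0.664), and Pax7 was most like Pax3, ahead of Ebf3 (0.608), Mstn (0.598), Ankrd50 (0.594) and Dach1 (0.594).

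The brain members came next. Pax6 in forebrain neuronal cells was at 2.52 and 3.45 in E9.5 embryos 1 and 2, at 4.77 and 2.11 in E10.5 embryos 1 and 2, and at 1.19 and 0.81 in E11.5 embryos 1 and 2. The E11.5 embryos were the lowest and E10.5 embryo 1, with 9 cells of which all 9 expressed Pax6, the highest. The expressing cells, in the same order, were 38 of 45, 40 of 43, 9 of 9, 16 of 27, 11 of 30 and 8 of 30. The median in the 122 expressing cells was 96.1 TPM.

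In labelled hindbrain neuronal cells Pax6 was at 4.12 and 0.00 in E9.5 embryos 1 and 2, at 0.83 and 0.12 in E10.5 embryos 1 and 2, and at 0.00 and 0.30 in E11.5 embryos 1 and 2. E9.5 embryo 1 stood alone, with 42 of 43 cells expressing Pax6, and the other 5 embryos gave 15 expressing cells between them. Those 42 cells came from the embryo in which all 43 cells held Otx2 and none held En1 or En2, while the 15 others all held En1 or En2. Of these 15, 11 came from E10.5 embryo 1, where all 30 cells held En1 or En2. Without E9.5 embryo 1 the labelled hindbrain level of Pax6 was 0.25 instead of 0.90.

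Pax3 was found in labelled hindbrain neuronal cells of every embryo. Its levels were 3.52 and 2.51 in E9.5 embryos 1 and 2, 3.44 and 0.88 in E10.5 embryos 1 and 2, and 0.91 and 2.16 in E11.5 embryos 1 and 2. In forebrain neuronal cells it was at 0.25 and 0.03 in E9.5 embryos 1 and 2 and at 0 in the other 4 embryos, so the organs did not overlap. The median in the 110 labelled hindbrain cells that expressed it was 152 TPM.

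Pax7 ran lower in the same cells, with levels of 0.32, 0.30, 0.39, 0.06, 0.40 and 0.42 in the embryos in the same order, and forebrain neuronal cells had 0 UMIs of it in every embryo. E10.5 embryo 2 was the lowest and the other 5 lay together. Pax3 was expressed in 14 of the 21 labelled hindbrain cells that expressed Pax7.

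Pax8, a member of the boundary group that later acts in thyroid and kidney, had labelled hindbrain levels of 0.00 and 0.20 in E9.5 embryos 1 and 2, of 0.90 and 0.86 in the same numbers of E10.5, and of 0.68 and 0.62 in those of E11.5. In forebrain neuronal cells it was at 0.19 in E9.5 embryo 1, at 0.08 in E11.5 embryo 2 and at 0 in the other 4 embryos. The organs overlapped through E9.5 embryo 1, the embryo without En1 or En2 in its labelled hindbrain cells. All 31 Pax8 cells of the labelled hindbrain expressed En1 or En2, against 72 of the 152 without Pax8. The 152 include the 43 cells of E9.5 embryo 1, and 9 of the 31 came from E10.5 embryo 1, where all 30 cells expressed En1 or En2. These shares thus follow in part from which embryos the cells came from.

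Pax2 and Pax5, the other boundary members, were sparse. Pax2 had labelled hindbrain levels of 0.01 and 0.02 in E9.5 embryos 1 and 2, of 0.42 and 0.20 in those of E10.5, and of 0.31 and 0.24 in those of E11.5, and 10 expressing cells, so that the E9.5 embryos were the lowest. Pax5 had 2 expressing cells, at 30.1 and 12.6 TPM in E10.5 embryo 2 and E11.5 embryo 2. All 10 Pax2 cells, 3 of them from E10.5 embryo 1, and both Pax5 cells expressed En1 or En2, and 8 of the 10 Pax2 cells expressed Pax8.

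**Figure D4:**
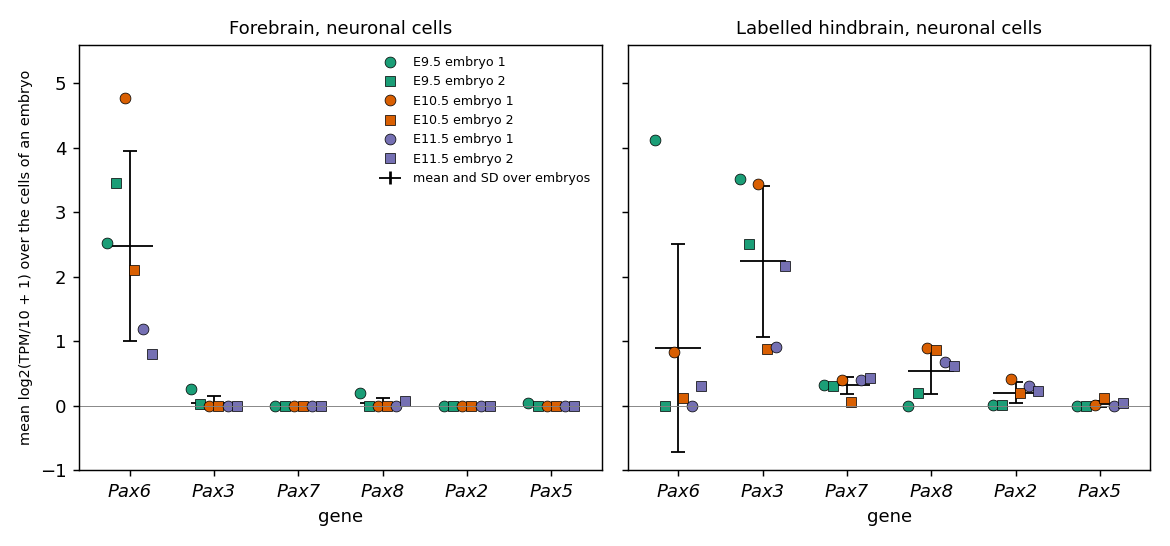
Mean log2(TPM/10 + 1) level of 6 Pax genes in neuronal cells of forebrain (left) and of labelled hindbrain (right). Points are the 6 embryos with brain cells and bars the mean and SD over them. Pax3 is at 0.88 or more in every labelled hindbrain embryo and at most 0.25 in forebrain, and Pax6 reaches 4.12 in labelled hindbrain in E9.5 embryo 1 only.

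The comparison of labelled hindbrain with forebrain asked which members differ between these brain regions, over 6 embryos that gave both. Pax3 was higher in labelled hindbrain by 2.19 (2.24 ± 1.17 against 0.05 ± 0.10, SE 0.36, adjusted p = 0.00378, limma with day as a covariate) and Pax7 by 0.32 (0.32 ± 0.13 against 0.00, SE 0.06, adjusted p = 0.00571, limma), each in 6 of 6 embryos. Of the 6 members tested 2 were called, against 1.24% of 14195 genes in either direction and 0.965% higher. With the embryo as a replicate block 113 genes were called instead of 176, Pax3 (adjusted p = 0.00919, limma) and Pax7 (adjusted p = 0.0173, limma) among them. Pax8 (0.50, SE 0.12, adjusted p = 0.0529, limma, higher in 5 of 6 embryos) and Pax2 (0.20, SE 0.05, adjusted p = 0.0877, limma, higher in 6 of 6) missed the threshold. Pax5 was at 0.02 (adjusted p = 0.799, limma). Pax6 was at −1.58 (SE 0.58, adjusted p = 0.246, limma) and lower in 5 of 6 embryos. Pax7 and Pax2 met the filter of 3 cells only through labelled hindbrain, with 21 and 10 cells at 10 TPM there and 0 in forebrain. Their calls and directions therefore add no evidence beyond those cells, here and under the settings below. These SEs pool the spread between embryos over both organs and are not those of labelled hindbrain alone.

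The calls changed with the tool, the gene filter, E9.5 embryo 1 and the sequencer. edgeR called 3 members, Pax3, Pax7 and Pax2 (adjusted p = 0.0495 for Pax2, edgeR with TMM factors), beside 215 other genes. Without a filter on low genes Pax3 missed the threshold (adjusted p = 0.0529, limma) and Pax7 was the 1 member called. Without E9.5 embryo 1, Pax6 was lower by 2.21 on the log2 scale (difference −2.21, SE 0.48, adjusted p = 0.0285, limma) and Pax8 was higher by 0.64 (adjusted p = 0.00705, limma), so that 4 members were called. With the HiSeq 4000 embryos alone, which leaves out both E9.5 embryos with brain cells, Pax3 stayed called, Pax2 (0.29, adjusted p = 0.0487, limma) and Pax8 (0.75, adjusted p = 0.0035, limma) were called, and Pax7 (0.32, adjusted p = 0.0623, limma) was not.

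Boundary genes and pallium genes also differed in this comparison. Of 10 tested genes of the midbrain and hindbrain organizer 4 were higher in labelled hindbrain (En1, En2, Irx3 and Wnt1), with a list median of 0.47 against 0.03 over all genes. En1 differed by 1.58 (SE 0.32, adjusted p = 0.0174, limma), En2 by 1.12 (SE 0.21, adjusted p = 0.00997, limma) and Wnt1, a signal of the dorsal midline and the boundary, by 0.44 (SE 0.10, adjusted p = 0.0397, limma). Of 15 genes of forebrain and pallium patterning 6 were lower, among them Emx2, Fezf2 and Lhx2 (median −1.19). Emx2, a patterning gene of the dorsal telencephalon, was lower by 2.42 on the log2 scale (difference −2.42, SE 0.24, adjusted p = 5.82e-05, limma). The dorsal neural tube list had 0 of 12 called.

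Neural crest markers differed between the organs beside Pax3 and Pax7, both of which the neural crest expresses. Of 7 tested neural crest genes 2 were higher in labelled hindbrain, Tfap2b by 2.01 (SE 0.29, adjusted p = 0.0014, limma) and Ednrb by 0.88 (SE 0.19, adjusted p = 0.0318, limma). The summed level of the 10 neural crest genes ran from 249 to 1189 TPM over the labelled hindbrain embryos and from 8.77 to 48.0 TPM over the forebrain embryos, with Foxd3 and Erbb3 at 0 in both. Their part in the Pax3 and Pax7 difference was not tested. Blood genes summed to between 16.5 and 1409 TPM in labelled hindbrain and between 34.0 and 3709 TPM in forebrain neuronal cells.

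Day was tested in both organs in 1 fit, in which the sequencer and the day cannot be told apart since both E9.5 embryos were read on a HiSeq 2500 and the rest on a HiSeq 4000. Of 14195 genes, 16.1% were called in forebrain and 5.09% in labelled hindbrain, and no Pax gene was called in either. At an unadjusted p under 0.05 there were 0 Pax genes in forebrain and 3 in labelled hindbrain, beside 4175 and 3164 other genes. No Pax gene was called by edgeR in either. Over all genes limma called 377 higher and 1910 lower with day in forebrain, while edgeR with TMM factors called 422 and 484. Pax6 in forebrain was at −0.99 per day (SE 0.52, adjusted p = 0.223, limma), and without E9.5 embryo 1 at −1.40 per day (SE 0.40, adjusted p = 0.0447, limma). In labelled hindbrain Pax2 was at 0.13 per day (SE 0.04, adjusted p = 0.0779, limma), Pax8 at 0.28 per day (SE 0.09, adjusted p = 0.0893, limma) and Pax3 at −0.74 per day (SE 0.30, adjusted p = 0.15, limma). Pax2 passed without E10.5 embryo 1 (0.13 per day, adjusted p = 0.0195, limma). The SEs of these slopes pool the spread between embryos over both organs and are not those of labelled hindbrain alone. For Pax2 the SD over embryos was 0.001 in forebrain and 0.16 in labelled hindbrain, and the SE of the slope was 0.04 in both.

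Genes of neurons rose over the same days, in forebrain 8 of 10 with a median slope of 1.69 per day and in labelled hindbrain 5 of 10 with 1.02 per day. Dcx, a microtubule protein of young neurons, rose by 1.74 per day in forebrain (SE 0.31, adjusted p = 0.00214, limma) and by 1.26 in labelled hindbrain (SE 0.31, adjusted p = 0.0312, limma). In forebrain 6 of 15 pallium and patterning genes rose, among them Dlx1, Dlx2, Eomes and Tbr1. With the HiSeq 4000 embryos alone, which span the later days, 0 genes were called in forebrain and 8 in labelled hindbrain, and without E9.5 embryo 2 they numbered 798 and 4, against 2287 and 722. The difference of the slopes between the organs had 0 calls of 14195 genes by limma (0%), while 993 other genes and 2 Pax genes were at an unadjusted p under 0.05 and edgeR called 2 others.

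**Figure D5:**
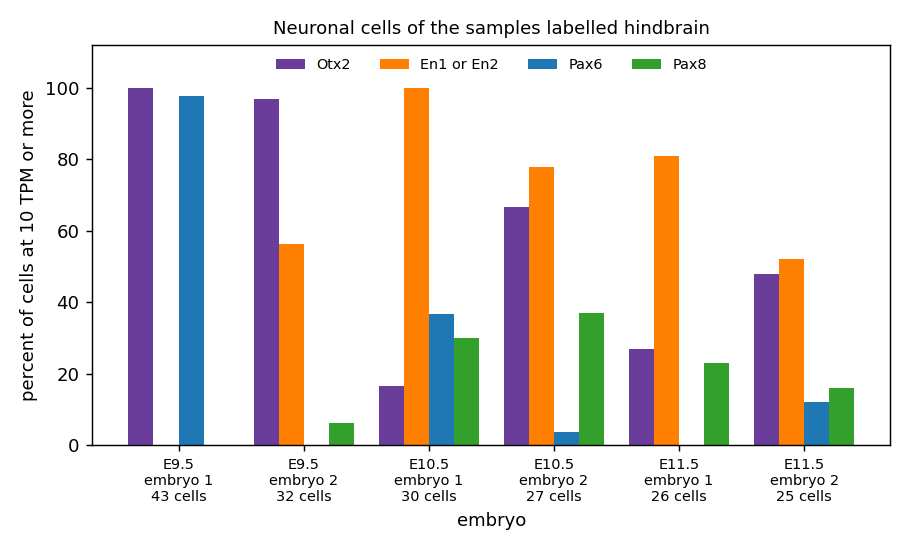
Share of labelled hindbrain neuronal cells of each of the 6 embryos, in percent, that express Otx2, En1 or En2, Pax6 and Pax8. E9.5 embryo 1 has Otx2 in 100% of its cells, Pax6 in 97.7%, and neither En1, En2 nor Pax8, while E10.5 embryo 1 has En1 or En2 in 100% and Pax8 in 30.0%. Over the E10.5 and E11.5 embryos Otx2 runs from 16.7% to 66.7% and En1 or En2 from 52.0% to 100%.

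Cells with and without a brain Pax gene, assigned after thinning to 100000 UMIs, were then compared over embryo means of their deposited values. In forebrain neuronal cells split by Pax6, 1 of 12336 genes was called, Pax6 itself (0.00811%), in labelled hindbrain cells split by Pax3 or Pax7 1 of 12986 (0.0077%), and in those split by Pax2, Pax5 or Pax8 1 of 12986 (0.0077%), again a Pax gene used in the split. No other gene was called by limma or edgeR in any of the 3, with 414, 407 and 508 others at an unadjusted p under 0.05.

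The forebrain split is given as shares of cells, as a description, for each day, since the cells with Pax6 came mostly from E9.5 and those without it mostly from E11.5. Among E10.5 cells Dcx had a UMI in 6 of the 15 with Pax6 and in 5 of the 5 without, and among E11.5 cells in 10 of 15 against 20 of 24, while no E9.5 cell held it. Neurod1, a factor of newborn neurons, was found in 1 of 15 against 4 of 5 at E10.5 and in 6 of 15 against 17 of 24 at E11.5. Hes1, which keeps progenitors from differentiating, had like shares at E9.5 (85.7% against 80.0%) and at E11.5 (33.3% against 37.5%). At E10.5 it was found in 14 of 15 cells with Pax6 against 3 of 5 without.

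Over embryo means none of these genes passed. Dcx differed by −0.99 (adjusted p = 0.999, limma, lower in 3 of 5 embryos with both kinds of cell), Neurod1 by −1.25 (adjusted p = 0.999, limma, lower in 4 of 5) and Hes1 by 0.53 (adjusted p = 0.999, limma, higher in 2 of 5). Nr2e1, a gene of forebrain progenitors, had a difference of 1.16 (2.12 ± 0.53, n = 6 embryos, against 0.97 ± 0.50, n = 5) and was above in 5 of 5 embryos with both, but did not pass (adjusted p = 0.999, limma).

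Labelled hindbrain cells thinned in the same way were described likewise. E9.5 embryo 1 held no cell with Pax2, Pax5 or Pax8 after thinning and is left out here, its cells lacking En1 and En2. En1 had a UMI in 82.9% of 41 cells with one of these Pax genes against 51.2% of 80 without (33.9% of 121 with that embryo). En2 was found in 32 of the 41 cells against 36 of the 80, Fgf8, the signal of the boundary organizer, in 39.0% against 13.8%, and Lhx1, a factor of interneurons, in 56.1% against 16.2%. Otx2 ran the other way, in 13 of 41 cells against 54 of 80. Pax3 was expressed in 17 of the 31 Pax8 cells, and in 48 of the 57 Pax6 cells (12 of 15 without E9.5 embryo 1).

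Likeness over the 89 sets was also read for the brain members. For Pax8 they were En2 (r = 0.940), Cnpy1 (0.930), Pax2 (0.923), Sncg (0.895) and Nefl (0.856). For Pax2 they were Pmfbp1 and Msx3 (0.95 each), Cnpy1 (0.946), Ppp1r1c (0.940) and Hs3st5 (0.937). For Pax6 they were Mlc1 (0.842), Nr2e1 (0.833), Sox3 (0.786), Cntnap2 (0.783) and Ptprz1 (0.769), and for Pax5, with 32 UMIs, the first was Prl3d1 (0.872).

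Epithelium was compared between skin, lung, intestine and liver. In skin epithelial cells Pax7 was at 0.29 in E9.5 embryo 2, at 0.25 in E10.5 embryo 2, at 0.24 in E11.5 embryo 1 and at 0 in the other 3 embryos, with 3 expressing cells of 81. Pax7 was higher in skin than in the epithelium of other organs by 0.13 (SE 0.04, adjusted p = 0.0224, limma), 1 of 3 members tested, against 9.31% of 14487 genes called higher and 14.4% called in either direction. Pax7 met the filter of 3 cells only through these skin cells, as 1 epithelial cell of the other organs expressed it. The call therefore adds no evidence beyond them. This call was lost without E9.5 embryo 2 (adjusted p = 0.157, limma), without E10.5 embryo 2 (adjusted p = 0.147, limma) and with the HiSeq 4000 embryos alone (adjusted p = 0.181, limma). Pax3 was at 0.46, 0.49 and 0.26 in 3 of the 6 embryos and at 0 in the others (difference 0.17, adjusted p = 0.0551, limma). Neural crest genes summed to between 554 and 1292 TPM in skin epithelial cells, and their part in these values was not tested.

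The other epithelial organs gave 0 of 3 members called by limma, with 7.97% of all genes called in intestine, 5.8% in lung and 21.4% in liver. No member was at an unadjusted p under 0.05, where 2983, 2878 and 4780 other genes were in the same order. edgeR called 1 in intestine, Pax9 (adjusted p = 0.0119, edgeR), a gene of foregut endoderm whose intestinal levels were 0.24 and 0.12 in E9.5 embryos 2 and 3 and 0 in the other 5 embryos. Other genes called there by edgeR with TMM factors numbered 1382.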

How the data were processed

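Single cells of mouse embryos were profiled by single-cell tagged reverse transcription with UMIs on Illumina HiSeq 2500 (E9.5 embryos 1 and 2) and HiSeq 4000. Per the labels and the methods, the authors used CASAVA 1.8, aligned reads with TopHat2 2.0.12 to mm10, counted uniquely mapped reads per gene with HTSeq and collapsed them by UMI; the annotation and strand setting are not given in the sources used here. The deposited values are CPM (UMIs of a gene scaled to the same total in every cell), which the authors named TPM, and 100% of values above 0 came out as whole UMIs within 0.05.

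Of 1916 cells, 1819 had a position in the authors' cell table, and 14 of these repeated another cell in every gene and were counted once, which left 1805. Major groups were taken from that table. Doublets were not called, since cells were picked singly. The replicate was the embryo. An embryo mean needed at least 3 cells and a gene needed 10 TPM in at least 3 cells. Means were fitted with limma 3.58.1 in R 4.3.3 (trend, Benjamini-Hochberg over all genes tested, adjusted p under 0.05), and edgeR 4.0.16 on summed whole UMIs was an alternative. The cells' column names carry the embryo number within a day (the sample titles do so only for E9.5), and cells of the same day and number were taken as 1 animal, so the embryo was also used as a replicate block. Correlations of same-embryo deviations ran from −0.04 to 0.74 between forebrain and hindbrain. Shares between cells of unequal depth were read after thinning to 100000 UMIs, which 1577 cells reached, and depth limits what low genes can show. Intervals are exact binomial ones, the limit on a count of 0 allows 3 cells, and both cover counting error only. Promoters and motifs came from RefSeq (GRCm38.p6) and coordinates from GENCODE M21. Scripts were tested on simulated data (Python 3.11.15, numpy 2.4.6, scipy 1.17.1).

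The 8 members, the marker lists and the tests were chosen with earlier results of these data known. Genes named were the Pax genes, genes of the lists that passed or define a cell type, the 10 largest rises and falls among genes called in a split of cells, and the 5 genes most like each Pax gene. Some genes of the lists are not reported here. Embryos were assumed to be independent. Where p-values are given they measure the spread between embryos, pooled over all groups of the fit.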

Additional observations from a re-analysis of the deposited data

Results flagged for a closer look

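Of 17 groups of embryos that were examined for a sample that stands apart from the rest, 3 held one, and chance alone gives about 1 in 20. Pax6 in labelled hindbrain neuronal cells was at 4.12 in E9.5 embryo 1 and between 0.00 and 0.83 in the other 5 embryos, and the gap to the nearest was 0.799 of the whole range. The share of mesoderm-derived somite cells with genes of both the Pax1/Pax9 and the Pax3/Pax7 pair was 70.0% in E11.5 embryo 2 and between 6.45% and 17.2% in the other 6, with a gap of 0.83 of the range. Pax7 in labelled hindbrain neuronal cells was at 0.0612 in E10.5 embryo 2 and between 0.30 and 0.42 in the others, with a gap of 0.659 of the range.

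A further pair of values lies in cells that no comparison used. The 10 neuronal cells of the somite sample of E9.5 embryo 2 had a mean Pax6 level of 1.79, with 5 cells at 10 TPM or more, where the blood cells of the somite, of which there were only 2, were at 0, and 3 of 246 blood cells of all organs expressed Pax6. The 3 mesoderm-derived cells of the forebrain sample of E9.5 embryo 2 had a mean Pax3 level of 2.83, with 2 cells at 10 TPM or more, where forebrain blood cells were at 0.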

How the results depend on the processing

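No direction turned for a Pax gene followed singly where the main or the other value was called. Uncalled directions did turn. In the difference of the slopes Pax3 was at −0.67 by limma and 4.57 by edgeR (TMM), and Pax6 at 0.04 and −2.10. In brain, 1 Pax gene was called with a log2 difference of at least 1 required and 1 without a gene filter (Pax3 at adjusted p = 0.0529, limma), and leaving out 1 embryo gave 2 to 4, with 4 without E9.5 embryo 1. edgeR called 3, and with the embryo as a replicate block 2 were called, as without it. The slopes gave 0 to 1 in forebrain (1 without E9.5 embryo 1) and 0 to 1 in labelled hindbrain (1 without E10.5 embryo 1). In mesoderm, 2 were called in somite at a log2 difference of at least 1, edgeR called 5 in somite, 1 in skin and 2 in heart, and heart gave 1 with log2(TPM + 1), a filter of 10 cells, at least 5 cells per mean, repeated columns counted separately or HiSeq 4000 embryos alone, and 0 to 1 on leaving out 1 embryo (1 without E9.5 embryo 2). In epithelium, skin gave 0 with a log2 difference of at least 1, a filter of 10 cells or HiSeq 4000 alone, 2 with edgeR or day as a covariate, and 0 to 2 on leaving out 1 embryo (0 without E9.5 embryo 2 or E10.5 embryo 2, 2 without E11.5 embryo 2), and edgeR called 1 in intestine. In the split of somite cells the genes other than Pax genes numbered 0 with the replicate block or without a filter, 4 with a filter of 10 cells or a second seed, 6 with at least 5 cells per mean, 7 with the split at 10 TPM, and 1 to 5 on leaving out 1 embryo. The cause of these changes was not tested. Of 220 counts under other settings 194 stayed within 1.5 times. Of 227 values of single genes 200 kept the call, 9 lost it and 18 gained it, and a turn of direction was counted only beside a call. The block changed no other call. Counts over all genes in brain ran from 176 to 286 with log2(TPM + 1), 107 with all kept cells, 84 without day, 75 without a filter, 113 with the replicate block, 95 without E9.5 embryo 2 and 88 at a log2 difference of at least 1. The slope of forebrain, 2287 genes, had 906 and 778 with edgeR (TMM and RLE factors), 1151 after thinning, 0 with HiSeq 4000 alone and 798 to 2515 on leaving out 1 embryo (798 and 947 without E9.5 embryo 2 or 1). That of labelled hindbrain, 722 genes, had 1336 with log2(TPM + 1), 332 without a filter, 36 and 16 with edgeR, 326 after thinning, 8 with HiSeq 4000 alone and 4 to 849 on leaving out 1 embryo (4, 32 and 60 without E9.5 embryo 2, E11.5 embryo 1 or E9.5 embryo 1). In mesoderm, the 881 genes of somite became 2241 with all kept cells and 524 to 832 on leaving out 1 embryo (554 and 524 without E10.5 embryo 1 or 2, 573 without E11.5 embryo 2), the 1083 of intestine 2073 with all kept cells and 637 without E10.5 embryo 2, and the 488 of lung 778 with edgeR (TMM). A log2 difference of at least 1 left 172 in somite, 555 of 3287 in heart and 666 of 2083 in skin epithelium. Heart mesoderm had 1578 higher and 1709 lower by limma but 2334 and 808 by edgeR (TMM), and lung mesoderm 307 and 181 but 649 and 129. In epithelium the same calls were 321 and 519 but 456 and 229 in lung and 662 and 492 but 1093 and 290 in intestine, and liver had 1988 and 1108 but 1444 and 1364 with RLE factors. Lung epithelium, 840 genes, gave 549 with at least 5 cells per mean and 521 to 524 without either E10.5 embryo. The shares of cells by day, without E9.5 embryo 1 and without E11.5 embryo 2 were chosen after seeing the data.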
